A study of Mus musculus with 8 samples.

Results

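The 9 genes described here encode proteins of the bone matrix and of its mineralization, and were chosen by gene symbol: *Spp1*, *Sparc*, *Mgp*, *Bglap*, *Bglap2*, *Ibsp*, *Alpl*, *Enpp1* and *Slc20a1*. All 9 were found among the 18605 genes of the expression table, and 7 of them passed the filter on low counts that left 13470 genes for testing. *Alpl* and *Ibsp* did not pass it. The RNA came from C3H10T1/2, a mesenchymal cell line established from embryos of C3H mice, which can form bone, fat or cartilage cells in culture. The cells carried a lentivirus with either a non-target control shRNA (NC) or an shRNA against *Nap1l2* (KD-Nap1l2), which encodes a histone chaperone of the nucleosome assembly protein family. RNA was taken either without induction or from cells kept for 7 days in osteogenic medium, the latter named NC-7d and KD-Nap1l2-7d, with 2 libraries in each of the 4 groups. The osteogenic medium contained dexamethasone, ascorbic acid and β-glycerol phosphate, so the groups taken after 7 days differ from the others in drug exposure and in time in culture together. The sources used here do not say which shRNA was sequenced, or whether the 2 libraries of a group came from separate cultures, and p-values therefore measure only the spread between these libraries.

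Bone matrix is a collagen scaffold that carries small acidic and calcium-binding proteins, and it mineralizes when calcium and phosphate are deposited in it. Osteopontin (*Spp1*) and bone sialoprotein (*Ibsp*) are acidic phosphoproteins of the SIBLING family, and osteonectin (*Sparc*) binds both collagen and calcium. Matrix Gla protein (*Mgp*) and osteocalcin (*Bglap*, *Bglap2*) carry γ-carboxylated glutamate, a vitamin K dependent modification that lets them bind calcium, and matrix Gla protein is an inhibitor of calcification. Tissue-nonspecific alkaline phosphatase (*Alpl*) degrades pyrophosphate, the inhibitor of mineral growth that the ectoenzyme *Enpp1* generates, and *Slc20a1* encodes the sodium-dependent phosphate transporter PiT-1. *Alpl*, *Ibsp* and osteocalcin are commonly used as markers of maturing osteoblasts.

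The libraries held between 17420284 and 19427359 estimated counts. The targeted gene was itself close to the limit of detection: *Nap1l2* had 3 counts in both NC libraries, 2 and 7 counts in KD-Nap1l2, 15 and 5 in NC-7d and 7 and 13 in KD-Nap1l2-7d, so a lower level in the libraries labelled as knockdown was not detectable at this depth. The 10 mesenchymal markers examined were present in all libraries, with a summed level of 7150 to 9487 FPKM without induction and 4717 to 5945 FPKM after it (fragments per kilobase of transcript, scaled to library depth, a level corrected for gene length). Of these 10, *Col3a1* and *Thy1* fell with induction in control cells and *Col3a1*, *Thy1*, *Col1a1* and *Col1a2* in cells labelled KD-Nap1l2 (edgeR), and none rose. Of 7 adipocyte markers, the summed level was 32.5 to 60.8 FPKM without induction and 175 to 229 FPKM after 7 days, most of it from *Fabp4* and *Pparg* in every library, whereas *Adipoq*, *Plin1* and *Cidec* did not exceed 0.83 FPKM in any library. In bulk RNA, a change in the share of cells that express a gene and a change in RNA per cell cannot be told apart.

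For the 3 members called different after induction that have a RefSeq promoter entry, and for *Bglap*, the first promoter window is given here, because these members moved with induction or carry the osteocalcin comparison below. A window covers 250 bases before to 50 bases after the annotated transcription start in RefSeq (build GRCm38.p6), and 7 of the 9 members had 1 or more windows, 10 in all. The *Spp1* window lies at chr5:104434861-104435160 on the plus strand, that of *Sparc* at chr11:55420031-55420330 on the minus strand, that of *Bglap* at chr3:88384417-88384716 on the minus strand and that of *Slc20a1* at chr2:129198523-129198822 on the plus strand. Sequences read 5′ to 3′ on the gene's strand, and capitals mark the core motif bound by Runx factors, ACCACA or its reverse complement TGTGGT, the only motif searched.

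Spp1: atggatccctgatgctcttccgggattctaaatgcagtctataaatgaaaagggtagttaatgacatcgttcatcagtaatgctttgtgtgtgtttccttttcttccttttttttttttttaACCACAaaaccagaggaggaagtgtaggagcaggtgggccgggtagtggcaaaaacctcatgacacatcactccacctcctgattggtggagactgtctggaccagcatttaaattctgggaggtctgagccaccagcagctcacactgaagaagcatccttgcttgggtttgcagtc

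Sparc: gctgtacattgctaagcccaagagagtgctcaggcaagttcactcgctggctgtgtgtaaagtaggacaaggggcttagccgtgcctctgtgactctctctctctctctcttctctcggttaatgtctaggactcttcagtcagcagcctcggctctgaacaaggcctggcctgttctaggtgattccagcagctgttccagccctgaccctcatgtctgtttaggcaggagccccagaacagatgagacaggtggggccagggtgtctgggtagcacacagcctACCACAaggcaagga

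Bglap: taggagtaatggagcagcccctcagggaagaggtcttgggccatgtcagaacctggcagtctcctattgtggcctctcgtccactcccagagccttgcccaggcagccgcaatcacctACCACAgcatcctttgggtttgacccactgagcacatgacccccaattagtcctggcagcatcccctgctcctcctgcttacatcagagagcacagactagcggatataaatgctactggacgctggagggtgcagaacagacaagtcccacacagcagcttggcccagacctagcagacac

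Slc20a1: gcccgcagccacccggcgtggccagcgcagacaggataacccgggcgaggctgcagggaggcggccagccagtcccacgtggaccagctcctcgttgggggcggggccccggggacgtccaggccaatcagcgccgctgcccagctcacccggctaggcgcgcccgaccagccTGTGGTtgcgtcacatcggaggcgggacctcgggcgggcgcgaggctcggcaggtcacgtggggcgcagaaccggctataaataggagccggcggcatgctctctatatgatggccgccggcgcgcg

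The core motif was present in 1 window each of 5 members, *Spp1*, *Sparc*, *Bglap*, *Enpp1* and *Slc20a1*, and in neither window of *Alpl* nor in that of *Ibsp*. It lay 128 to 123 bases before the start of *Spp1*, 132 to 127 bases before that of *Bglap*, 144 to 139 bases before that of *Enpp1* and, in the reverse orientation, 77 to 72 bases before that of *Slc20a1*. In *Sparc* it lay 36 to 41 bases after the start, with the first transcribed base as 1. Of all 32817 windows of this length in the RefSeq table, 16.8% hold it. A match describes the letters only, and binding was not tested.

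Levels are given in FPKM here, the scale on which genes of different length can be compared, and the members ranged from 0 to 3683. *Spp1* (1067 to 3683 FPKM), *Sparc* (605 to 1690 FPKM) and *Mgp* (210.5 to 3355 FPKM) formed an abundant group and together supplied 98.5 to 99.1% of the members' counts in every library. All 9 members together took 0.487 to 0.839% of a library's counts. *Enpp1* (4.31 to 9.20 FPKM) and *Slc20a1* (4.97 to 12.31 FPKM) were expressed at a moderate level, and their ranges overlapped. *Bglap* (0 to 2.83 FPKM) and *Bglap2* (0 to 5.36 FPKM) were low, and *Alpl* (0 to 0.24 FPKM) and *Ibsp* (0 to 0.06 FPKM) were almost unread. The order between abundant, moderate and low genes held in all 8 libraries, whereas the order within the abundant group did not: *Sparc* was the highest of the 3 in every library without induction, and *Spp1* or *Mgp* in every library after it.

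**Figure D1:**
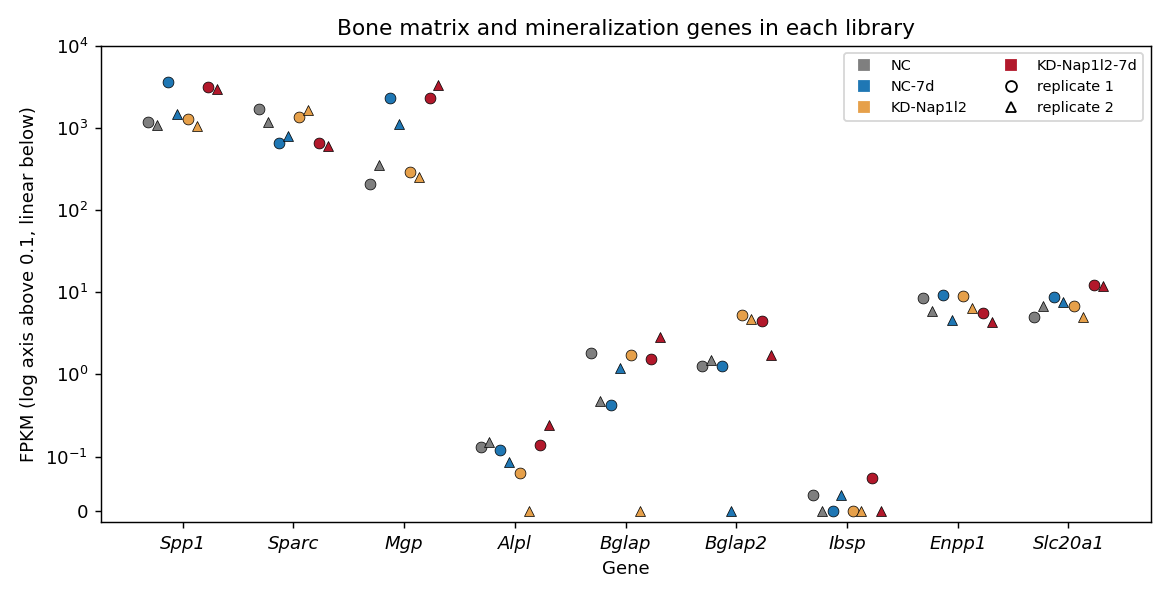
Level of each of the 9 genes in each of the 8 libraries, in FPKM on an axis that is logarithmic above 0.1 and linear below it; color gives the group, and circles and triangles are replicates 1 and 2. *Spp1*, *Sparc* and *Mgp* sit above 200 FPKM, *Enpp1* and *Slc20a1* between 4.31 and 12.31 FPKM, and *Alpl* and *Ibsp* at or below 0.24 FPKM.

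Induction in the control cells was examined first, to ask which members of the matrix and mineral machinery changed over 7 days in osteogenic medium. Against NC, 2 of the 7 tested members were called in NC-7d at an adjusted p under 0.05 (edgeR's quasi-likelihood test, Benjamini-Hochberg adjustment over all 13470 genes), where 8.22% of all tested genes were called. *Mgp* rose and *Sparc* fell. The median log2 fold change of the 7 members was -0.10, beside -0.0036 over all tested genes. In 4 of the 7 members the NC and NC-7d libraries did not overlap, as was true of 57.8% of all tested genes.

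*Mgp* changed most. It stood at 210.5 and 355 FPKM in the NC libraries and at 2347 and 1107 FPKM in NC-7d, which moved it from rank 333 and 191 among all genes to rank 13 and 37. Both induced libraries lay above both uninduced ones, although they differed 2.12-fold from each other. In normalized counts the change was from 2956 ± 1042 to 18150 ± 9720 (SD, n = 2), 6.14-fold, with a log2 fold change of 2.62 (SE 0.41, adjusted p = 0.0103 from edgeR). *Mgp* is also made by chondrocytes and vascular smooth muscle cells. The summed level of the 7 chondrocyte markers measured was 76.3 to 77.5 FPKM in NC and 62.4 to 82.6 FPKM in NC-7d. *Sox9* supplied most of it. Of the 5 tested, *Col10a1*, at most 0.89 FPKM in any library, was called lower (log2 fold change -2.95, adjusted p = 0.0369 from edgeR) and none higher. The 6 smooth muscle markers summed to 735 to 929 FPKM in NC and 348 to 712 FPKM in NC-7d. Of the 5 tested, *Myh11*, at most 1.47 FPKM in any library, was called lower (log2 fold change -2.00, adjusted p = 0.0313 from edgeR) and none higher.

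*Sparc* went the other way. Its levels were 1690 and 1186 FPKM in NC and 662 and 795 FPKM in NC-7d, without overlap, and the change was 1.99-fold (log2 fold change -0.99, SE 0.23, adjusted p = 0.0363 from edgeR). The summed mesenchymal markers given above were also lower after induction, and their part in this result was not tested. The call depended on the libraries used: it was lost without NC replicate 1 (adjusted p = 0.232), without either NC-7d library (0.150 and 0.0778) and without either KD-Nap1l2-7d library (0.0778 and 0.0784), whose spread the fit shares. Without NC replicate 1, *Mgp* was not called either (log2 fold change 2.30, adjusted p = 0.107), and no member remained, in a fit that called 122 of all genes in place of 1107.

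*Spp1* showed a split between the induced control libraries. Its levels were 1172 and 1093 FPKM in NC, and 3683 and 1469 FPKM in NC-7d, 2.51-fold apart within that group. *Gm42793* of GENCODE vM21 lies over the first part of *Spp1* on the same strand, so reads there cannot be assigned to 1 of the 2 genes. Replicate 1 was the 4th and replicate 2 the 19th most abundant gene of its library. Both lay above NC, but the log2 fold change of 1.19 (SE 0.38, adjusted p = 0.0974 from edgeR) was not called. It was 1.73 without NC-7d replicate 2 (adjusted p = 0.00374) and 0.34 without NC-7d replicate 1, and DESeq2, which called 11.5% of all genes here, called it (log2 fold change 1.18, adjusted p = 0.00416). NC-7d replicate 2 was also the lower of that pair for *Mgp*, *Enpp1* and *Slc20a1*, and the higher for *Sparc*.

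The same induction was then followed in the cells labelled KD-Nap1l2. Here 4 of the 7 tested members were called in KD-Nap1l2-7d against KD-Nap1l2, where 14.2% of all tested genes were called: *Mgp*, *Spp1* and *Slc20a1* rose and *Sparc* fell. The members' median log2 fold change was 1.05, beside -0.0070 over all tested genes. The libraries of both groups did not overlap in 6 of the 7, as in 61.4% of all tested genes. Without either KD-Nap1l2-7d library only 1 member, *Mgp*, was called, in fits that called 305 and 330 of all genes in place of 1912.

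*Mgp* stood at 295 and 251 FPKM in KD-Nap1l2 and at 2313 and 3355 FPKM in KD-Nap1l2-7d, ranks 10 and 5 among all genes. The change was 10.5-fold (log2 fold change 3.39, SE 0.43, adjusted p = 0.00348 from edgeR), and *Mgp* was called in this comparison under every alternative run, with log2 fold changes from 3.08 to 3.64. *Spp1* stood at 1275 and 1067 FPKM before and 3181 and 3019 FPKM after induction, a change of 2.67-fold (log2 fold change 1.41, SE 0.38, adjusted p = 0.0446). Its value moved little when single libraries were left out (1.35 to 1.48), but the adjusted p was between 0.0753 and 0.186 without either NC, KD-Nap1l2 or KD-Nap1l2-7d library. *Sparc* was read at 1362 and 1670 FPKM in KD-Nap1l2 and at 661 and 605 FPKM in KD-Nap1l2-7d, 2.40-fold lower (log2 fold change -1.26, SE 0.23, adjusted p = 0.0124). The chondrocyte markers, of which *Sox9* supplied most in every library, summed to 91.8 to 121 FPKM in KD-Nap1l2 and to 63.5 to 64.9 FPKM in KD-Nap1l2-7d. Of the 5 tested, 3 were called lower and none higher (edgeR). They were *Sox9* (log2 fold change -0.67), *Col2a1* (-1.94) and *Col10a1* (-4.28). *Col2a1* was also called higher in KD-Nap1l2 against NC (log2 fold change 2.56, adjusted p = 0.0478 from edgeR). The smooth muscle markers, most of it *Acta2*, summed to 983 to 1597 FPKM and to 310.2 to 411 FPKM, lower after induction as *Sparc* was. *Acta2* was called lower (log2 fold change -1.95, adjusted p = 0.0157 from edgeR), and none of the 5 tested was called higher. The part of these markers in these results was not tested. *Mgp*, last of the abundant group in every uninduced library, thus exceeded *Sparc* in every induced one.

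**Figure D2:**
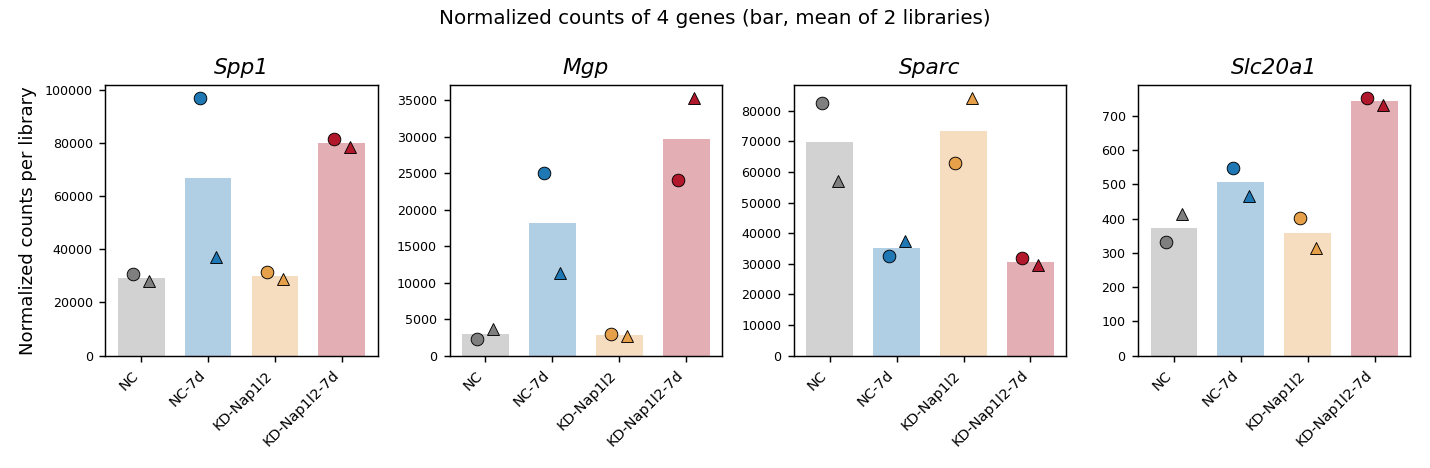
Normalized counts of *Spp1*, *Mgp*, *Sparc* and *Slc20a1* in each library on axes that start at 0; bars are means of 2 libraries, circles replicate 1 and triangles replicate 2. *Mgp*, *Spp1* and *Slc20a1* are higher and *Sparc* lower in each pair of induced libraries, and the NC-7d libraries of *Spp1* lie 2.51-fold apart in FPKM.

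The genes that set phosphate and pyrophosphate outside the cell had smaller log2 fold changes than the 3 abundant matrix genes. *Slc20a1*, the phosphate transporter, was read at 4.97 and 6.81 FPKM in NC, 8.83 and 7.65 FPKM in NC-7d, 6.75 and 5.01 FPKM in KD-Nap1l2 and 12.31 and 11.89 FPKM in KD-Nap1l2-7d. Both libraries labelled KD-Nap1l2-7d were the highest of the 8. In GENCODE vM21, *Gm4430* and *9830144P21Rik* overlap *Slc20a1* on the opposite strand, and without knowing whether counting used strand, reads from them and from *Slc20a1* cannot be told apart. The gene rose 2.07-fold in those cells (log2 fold change 1.05, SE 0.18, adjusted p = 0.0104), and this call was lost without either KD-Nap1l2-7d library (adjusted p = 0.0844 and 0.0706). In the control cells the log2 fold change was 0.44 (SE 0.18, adjusted p = 0.179), without overlap of the groups but without a call. *Enpp1*, the pyrophosphate-forming enzyme, was read at 8.57 and 5.94 FPKM in NC, 9.20 and 4.63 FPKM in NC-7d, 8.97 and 6.40 FPKM in KD-Nap1l2 and 5.52 and 4.31 FPKM in KD-Nap1l2-7d. Replicates of *Enpp1* differed up to 1.99-fold, and neither induction change was called (log2 fold change -0.10, SE 0.34, in control cells and -0.62, SE 0.34, in cells labelled KD-Nap1l2, with adjusted p of 0.893 and 0.258).

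*Alpl* and *Ibsp* stayed near the limit of detection. *Alpl* had 6 and 7 counts in NC, 5 and 4 in NC-7d, 3 and 0 in KD-Nap1l2 and 6 and 10 in KD-Nap1l2-7d. Fitted without the filter on low counts, its adjusted p was 0.861 for induction in the control cells and 0.167 in the cells labelled KD-Nap1l2 (edgeR). *Ibsp* had 1 count in 1 NC and in 1 NC-7d library, 2 counts in 1 KD-Nap1l2-7d library and none in the other 5. A count of 0 allows up to 3 counts, or 0.169 and 0.164 CPM in the KD-Nap1l2 libraries, so that a difference between groups was not detectable for *Ibsp*.

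Osteocalcin is encoded by a cluster on chromosome 3 (GRCm38.p6, minus strand), in which *Bglap* lies at 88383495 to 88384466, *Bglap2* at 88377736 to 88378701 and *Bglap3*, not one of the 9 genes, at 88368616 to 88372741. The main GENCODE transcripts of *Bglap* and *Bglap2* differ at 6 of 440 aligned bases (98.6% identical), and 74.7% of all stretches of 50 bases in *Bglap* occur unchanged in *Bglap2*. *Bglap3* is 96.1% identical to *Bglap*. Reads from these stretches cannot be assigned to 1 gene, and the values of each gene are uncertain for that reason. *Bglap* had 15.43 and 4.21 estimated counts in NC, 3.33 and 10 in NC-7d, 13.83 and 0 in KD-Nap1l2 and 12.64 and 22.48 in KD-Nap1l2-7d. *Bglap2* had 10.36 and 12.79 in NC, 9.81 and 0 in NC-7d, 42.36 and 37.92 in KD-Nap1l2 and 35.64 and 13.59 in KD-Nap1l2-7d. A library at 0 for one gene held counts of the other.

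With both genes summed, a step added after the data were seen, the counts were 25.8 and 17 in NC, 13.1 and 10 in NC-7d, 56.2 and 37.9 in KD-Nap1l2 and 48.3 and 36.1 in KD-Nap1l2-7d. All 4 libraries labelled as knockdown were thus above all 4 control libraries. The share of all tested genes that separate 4 against 4 libraries was not computed. In either direction, 43.2% of them did not overlap between KD-Nap1l2 and NC, and 42% between KD-Nap1l2-7d and NC-7d. The summed log2 fold change was 1.19 (SE 0.39) without induction and 1.86 (SE 0.41) after 7 days, with unadjusted p of 0.0154 and 0.00206 in the fit across all genes, but neither was called (edgeR adjusted p = 0.237 and 0.436). Adding *Bglap3* left the direction and gave 1.10 (adjusted p = 0.230) and 1.24 (adjusted p = 0.517). Induction did not raise the summed counts beyond the spread in either line (log2 fold change -0.82, SE 0.43, and -0.14, SE 0.37, with adjusted p of 0.291 and 0.829).

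**Figure D3:**
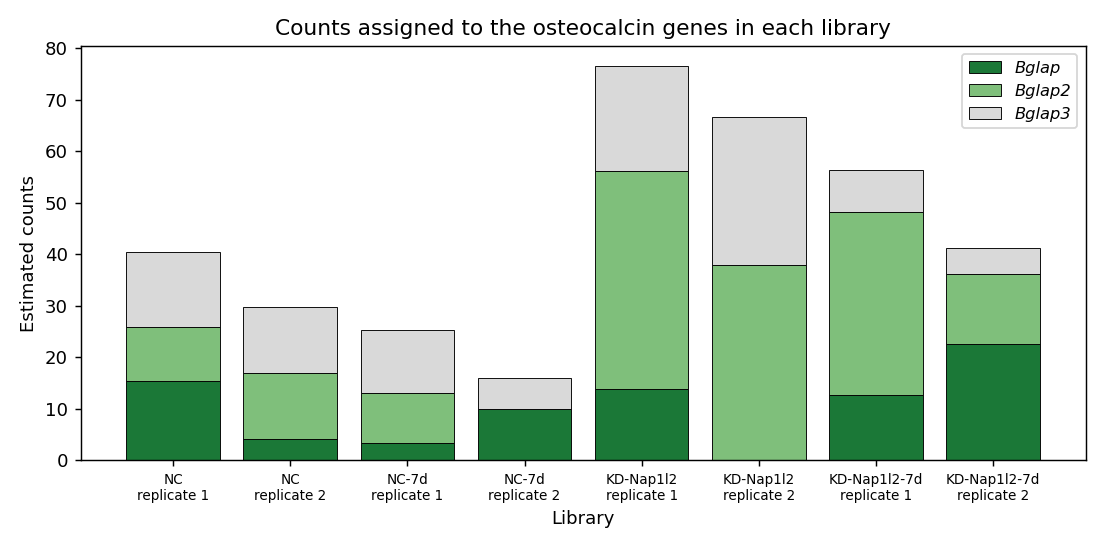
Estimated counts assigned to *Bglap*, *Bglap2* and *Bglap3* in each library, stacked, on an axis from 0. The sum of *Bglap* and *Bglap2* runs from 10 to 25.8 in the 4 control libraries and from 36.1 to 56.2 in the 4 libraries labelled as knockdown. The split between the genes varies within groups. How many of all genes separate in this way was not computed.

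The knockdown was compared with the control at each time to ask whether the members differed with the shRNA. Without induction, none of the 7 tested members was called when KD-Nap1l2 was set against NC, where 0.0817% of all tested genes were called. None had an unadjusted p under 0.05 in edgeR, beside 1852 of the 13470 tested genes. DESeq2 also called 0 members, beside 3.55% of all genes with an adjusted p. For the abundant members the log2 fold change was 0.04 (SE 0.37) for *Spp1*, 0.08 (SE 0.22) for *Sparc* and -0.06 (SE 0.39) for *Mgp*. *Bglap2* was the only tested member whose libraries did not overlap, as was true of 43.2% of all tested genes, with a log2 fold change of 1.86 (SE 0.81, adjusted p = 0.366).

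After 7 days none of the members was called between the libraries labelled KD-Nap1l2-7d and NC-7d, and none of the 13470 tested genes was (0%). At an unadjusted p under 0.05 there were 2 members, *Slc20a1* and *Bglap2*, and 1057 genes in all, and DESeq2 called 0 members and 79 genes (0.623%). *Slc20a1* had a log2 fold change of 0.55 (SE 0.18, unadjusted p = 0.0139, adjusted p = 0.519 from edgeR), and *Bglap2* one of 2.28 (SE 0.94, adjusted p = 0.614). *Mgp* had 0.71 (SE 0.39) and *Bglap* 1.45 (SE 1.09). The libraries did not overlap for *Sparc*, *Bglap*, *Bglap2* and *Slc20a1*, 4 of 7 members, beside 42% of all tested genes. *Spp1* turned on the split NC-7d pair: its log2 fold change was 0.26 (SE 0.37) with both libraries, 1.11 without replicate 1 and -0.28 without replicate 2.

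Whether induction acted differently in the 2 lines was tested by the difference of the 2 induction changes. No member and no gene (0%) was called, 1 member and 948 genes had an unadjusted p under 0.05, and DESeq2 called 0 members and 98 genes (0.757%). *Slc20a1* was that member, with a difference of 0.61 (SE 0.25, unadjusted p = 0.0409, adjusted p = 0.697 from edgeR). The differences were 0.77 (SE 0.55) for *Mgp*, 0.22 (SE 0.53) for *Spp1*, -0.27 (SE 0.32) for *Sparc* and -0.52 (SE 0.48) for *Enpp1*. *Spp1* and *Slc20a1* passed the threshold in 1 line and not in the other, but a difference between the lines was thus not shown. The comparisons share libraries, since each group enters 2 of them.

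**Figure D4:**
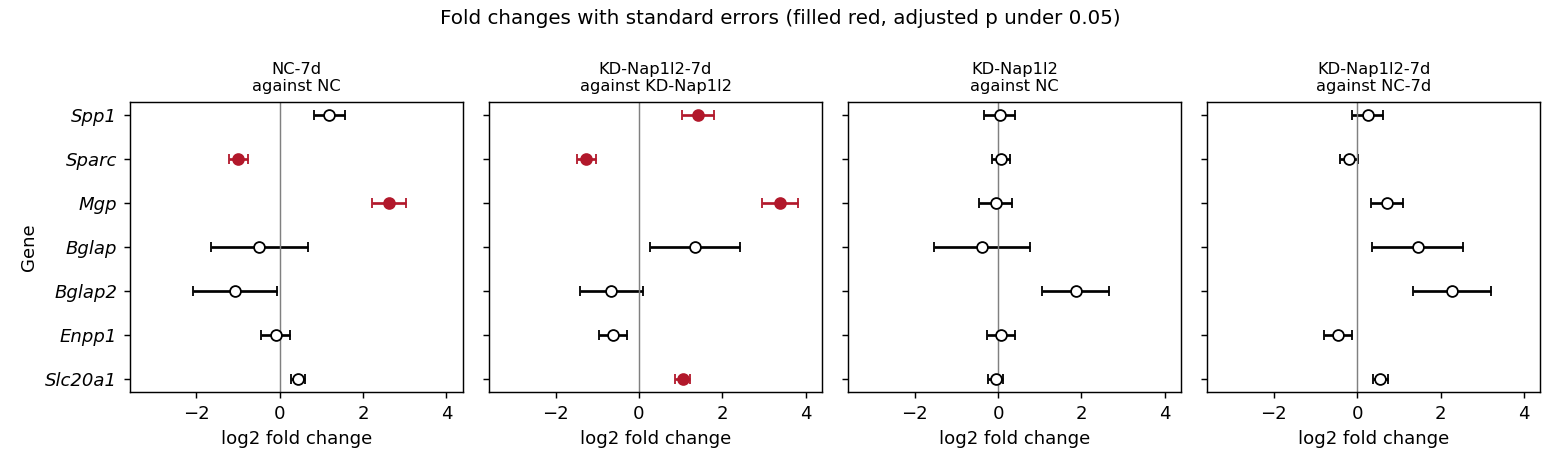
Log2 fold change of the 7 tested members (points) with its standard error (bars) in 4 comparisons; filled red points have an adjusted p under 0.05. Called members lie only in the 2 comparisons of induced with uninduced cells, with *Mgp* farthest right at 2.62 and 3.39 and *Sparc* to the left at -0.99 and -1.26.

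The transcripts behind these levels were read next. *Spp1* came mainly from 1 of its 3 listed transcripts, NM_001204203.1, with 93.0 to 95.3% of its estimated counts in every library, and *Sparc* from NM_009242.5 with 80.1 to 83.7%. *Mgp* has 1 listed transcript. These ranges cover all 8 libraries, with induction or without. The shares in the moderate genes did not hold still: NM_008813.4 had 43.5 to 96.7% of *Enpp1*, and NM_015747.2 39.3 to 77.2% of *Slc20a1*. NC replicates 1 and 2 alone gave 39.3 and 77.1% for the latter, so that no shift with induction could be read.

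The study used quantitative PCR for *Spp1* and *Bglap* elsewhere, and its primers were matched by sequence alone to the transcripts of GENCODE vM21. They are printed 5′ to 3′. In the reverse primers, capitals mark the part after the longest unbroken match from the 5′ end found anywhere in the transcript compared. That place need not be the primer's best one, so a capital need not be a mismatch. At its best place in the transcript compared, the *Spp1* reverse primer had 4 mismatches, beside 5 capitals. The *Bglap* reverse primer had 3, beside 18 capitals. The transcripts compared were the 1410-base transcript of *Spp1* for the first pair and that of *Bglap2* for the second.

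Spp1 forward: aagcatccttgcttgggtttg

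Spp1 reverse: tggtcgtagttagtccCTCAG

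Bglap forward: gaacagacaagtcccacacagc

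Bglap reverse: tcagCAGAGTGAGCAGAAAGAT

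Both *Spp1* primers occurred whole in 1 of the 7 *Spp1* transcripts of GENCODE vM21, one of 1456 bases, with a product of 129 bases. In the other 6, those of 1410 and 1411 bases included, the first 16 bases of the reverse primer occurred unbroken, and the whole primer had 3 or 4 mismatches at its best place. Among GENCODE transcripts, both *Bglap* primers occurred whole in 1, a *Bglap* transcript of 351 bases that retains an intron, with a product of 79 bases. The forward primer was also whole in *Bglap2*, in *Bglap3* and in the *Bglap* window printed above, where it lies after the RefSeq start. It had 11 mismatches at its best place in the 440-base *Bglap* transcript of GENCODE. The reverse primer was whole in both GENCODE transcripts of *Bglap* and had 3 mismatches at its best place in *Bglap2* and in *Bglap3*. A RefSeq transcript from that start can hold the forward primer, and RefSeq transcripts were not searched. These matches thus do not settle which *Bglap* RNA the pair reads.

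To set the members in their pathway, 68 further genes were listed in 6 groups by role, of which 67 were in the table and 50 were tested. In NC-7d against NC, 2 of the 50 rose and 9 fell, and in KD-Nap1l2-7d against KD-Nap1l2 1 rose and 15 fell, beside 4.83% of all tested genes called higher and 3.39% called lower in the former and 6.84% and 7.36% in the latter. The counts of the single groups below stand beside the same shares. None was called in the comparisons of knockdown with control or in the difference (edgeR), whereas DESeq2 called 6 without induction, 4 after 7 days and 1 in the difference, beside 3.55%, 0.623% and 0.757% of all genes with an adjusted p. The median log2 fold change of the 50 was -0.24 and -0.39 in the 2 induction comparisons.

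Among 10 tested matrix proteins other than the members, 3 fell in control cells and 5 in cells labelled KD-Nap1l2, and none rose. *Thbs1*, which encodes the adhesive glycoprotein thrombospondin-1, fell 3.64-fold in control cells (log2 fold change -1.86, adjusted p = 0.0242) and 3.58-fold in cells labelled KD-Nap1l2 (-1.84, adjusted p = 0.0191). *Clec11a*, a growth factor for osteogenic cells, fell 1.98-fold and 3.09-fold, and *Clec3b* (tetranectin) 3.66-fold and 5.54-fold. *Tnc* (tenascin-C) and *Fbln1* (fibulin-1) were called in the cells labelled KD-Nap1l2 alone, with falls of 4.75-fold and 3.11-fold. In control cells their log2 fold changes were -1.34 and 0.22 (adjusted p = 0.0582 and 0.654 from edgeR). *Dmp1*, a SIBLING gene of osteocytes and late osteoblasts that was singled out after its values were seen, had 75 to 569 counts and was not called in either induction comparison (log2 fold change -1.74, SE 0.65, and -1.54, SE 0.64, both with an adjusted p of 0.147). *Dspp* and *Mepe*, the remaining SIBLING genes, were below the filter, as was *Ahsg*. Of the *Sparc* relatives, *Fstl1* (1.86-fold) and *Sparcl1* (1.84-fold) fell in cells labelled KD-Nap1l2, 2 of 5 tested, and *Spock1* and *Spock3* were below the filter. In control cells *Fstl1* was 1.37-fold and *Sparcl1* 1.82-fold lower, without a call (adjusted p = 0.176 and 0.0639 from edgeR).

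Among 9 tested genes of phosphate and pyrophosphate handling only *Enpp2* was called, and it rose 2.21-fold in control cells and 3.78-fold in cells labelled KD-Nap1l2. Despite its name, *Enpp2* encodes autotaxin, which forms lysophosphatidic acid. *Nt5e*, *Abcc6*, *Entpd1*, *Slc34a1*, *Slc34a2* and *Slc34a3* were below the filter. Of 10 tested genes that modify or cleave matrix proteins, 1 was called in each line. *Vkorc1*, which recycles vitamin K for the carboxylation that *Mgp* and osteocalcin need, fell 1.96-fold in control cells (adjusted p = 0.0100 from edgeR). Its log2 fold change in cells labelled KD-Nap1l2 was -0.41 (adjusted p = 0.108 from edgeR). The protease gene *Pcsk6* fell 7.87-fold in cells labelled KD-Nap1l2, from 0.46 and 1.17 FPKM to 0.08 and 0.13 FPKM. In control cells *Pcsk6* had a log2 fold change of -1.71 without a call (adjusted p = 0.147 from edgeR). *Phex*, an endopeptidase gene of osteoblasts and osteocytes that was likewise singled out after its values were seen, had 40.9 to 367 counts and was not called (log2 fold change -0.36, SE 0.86, and 1.18, SE 0.90). *Galnt3* and *Pcsk5* were below the filter.

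Of 9 tested receptors for osteopontin and bone sialoprotein, 2 fell in control cells and 3 in cells labelled KD-Nap1l2. The integrin chain gene *Itga8* fell 2.98-fold and 2.30-fold, and *Itgav*, the αv chain, 1.61-fold in the latter. In control cells *Itgav* had a log2 fold change of -0.27 without a call (adjusted p = 0.360 from edgeR). *Itga9* was called in both but ranged only from 0.14 FPKM down to 0. Of 7 tested regulators, *Bmp4* (2.34-fold and 2.08-fold), *Dlx5* (1.68-fold and 1.75-fold) and the glucocorticoid receptor gene *Nr3c1* (2.17-fold and 2.22-fold) fell in both lines. *Vdr*, the vitamin D receptor gene, rose 2.23-fold in control cells, with 23.7 and 48.2 FPKM in the NC-7d libraries. In cells labelled KD-Nap1l2 its log2 fold change was 0.32, without a call (adjusted p = 0.462 from edgeR). *Runx2*, the transcription factor gene whose protein binds the core motif shown above, was called lower in KD-Nap1l2-7d by counts (log2 fold change -0.58, adjusted p = 0.0334 from edgeR). On the FPKM scale it stood at 15.2 and 15.6 in KD-Nap1l2 and at 15.1 and 16.0 in KD-Nap1l2-7d, which shows no fall. In control cells its log2 fold change by counts was -0.46 (adjusted p = 0.0924 from edgeR), whereas FPKM went from 11.5 and 10.5 in NC to 13.2 and 14.4 in NC-7d. FPKM was thus higher in the libraries labelled as knockdown at both times. By counts those log2 fold changes were -0.03 without induction and -0.15 after 7 days, neither called. *Sp7*, *Dlx3*, *Msx2* and *Bmp2* were below the filter, and *Sp7* had at most 5.16 counts in any library.

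Across the 8 libraries, the abundant members and *Slc20a1* moved as a block that induction divided. On log2 CPM (counts scaled to library size), Pearson's r was 0.93 between *Spp1* and *Mgp*, 0.93 between *Mgp* and *Slc20a1*, 0.87 between *Spp1* and *Slc20a1* and -0.97 between *Sparc* and *Mgp*. *Enpp1* and the osteocalcin genes were less close to it. For *Enpp1*, r was -0.13 with *Spp1*, -0.45 with *Mgp*, -0.48 with *Slc20a1* and 0.49 with *Sparc*. With the block, *Bglap* ran from -0.40 (*Sparc*) to 0.51 (*Slc20a1*) and *Bglap2* from -0.19 (*Mgp*) to 0.28 (*Sparc*). Between *Bglap* and *Bglap2* r was -0.16. The libraries fall into induced and uninduced ones, so these values describe that split and are given with no test. Among the 11279 genes that averaged 50 or more normalized counts, the most similar in pattern were *Gpat3* (r = 0.99) and *Fmnl3* (0.98) for *Spp1*, *Sertad2* and *Nr3c1* (both 0.99) for *Sparc*, *Kng1* and *Tmbim6* (both 0.99) for *Mgp*, *Nmt1* (0.99) and *Dus1l* (0.98) for *Slc20a1* and *Ttc23* (0.95) and *Gulp1* (0.94) for *Enpp1*. For the sparse osteocalcin counts they were *Prorsd1* and *Crot* (*Bglap*, 0.93 and 0.92) and *Abca8b* and *Cct8* (*Bglap2*, 0.95 and 0.94), which is no finding at these counts.

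Markers of other cell types were read beside the members, and their part in the results was not tested. *Spp1* is strongly expressed by macrophages and osteoclasts. The 3 osteoclast markers measured summed to at most 0.41 FPKM, with *Calcr* and *Ocstamp* at 0 in 7 of 8 libraries each, and of the 6 macrophage markers *Ptprc*, *Csf1r* and *Itgam* did not exceed 0.26 FPKM in any library. The summed macrophage level, 12.7 to 22.8 FPKM, was made up of *Cd68*, *Cd14* and *Lyz2*. It was 12.9 to 16.2 FPKM without induction and 12.7 to 22.8 FPKM after it. *Cd14* was higher in all 4 induced libraries (7.96 to 13.8 FPKM) than in the 4 uninduced ones (4.33 to 6.79 FPKM), as *Mgp* was, without a call (edgeR adjusted p = 0.101 in control cells and 0.182 in cells labelled KD-Nap1l2). *Ctsk* of the osteoclast markers also separated, at 0.28 to 0.41 FPKM against 0.05 to 0.22 FPKM, without a call (adjusted p = 0.254 and 0.387). Between the induced and uninduced groups of control and KD-Nap1l2 cells, 57.8% and 61.4% of all tested genes did not overlap. The share that separate 4 against 4 libraries was not computed. *Lyz2* (log2 fold change -1.19, SE 0.50, and -0.75, SE 0.47) and *Csf1r* (-1.23, SE 0.50, and -0.55, SE 0.55) had lower values after induction and were not called either. Endothelial markers summed to between 0.73 and 2.47 FPKM. *Tek*, at most 1.27 FPKM in any library, was called lower after induction in cells labelled KD-Nap1l2 (log2 fold change -2.81, adjusted p = 0.00825 from edgeR). In control cells none of the 4 tested was called. Of 5 adipocyte markers tested, *Fabp4* and *Pparg* rose with induction in both lines, whereas *Cebpa* (log2 fold change -2.40, SE 0.42) and *Lpl* (-1.54, SE 0.32) fell in cells labelled KD-Nap1l2 and were not called in control cells.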

How the data were processed

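RNA was extracted with Trizol from C3H10T1/2 cells and sequenced, and the 9 genes and all gene lists were chosen with earlier results of these data known. The authors deposited RSEM estimated counts, which need not be whole (41.1% of genes held one that was not), and FPKM values per gene and per transcript; the submitters' notes name Bowtie2, BWA and RSEM without versions and build GRCm38.p6. Whether counting used strand is not given in the sources used here. FPKM depends on the transcript mix that RSEM assigns, so counts and FPKM of 1 gene can differ in direction. Deposited tables of the authors' own comparisons, holding fold changes and p-values, were not used.

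Estimated counts were rounded and tested with edgeR 4.0.16 in R 4.3.3 (filterByExpr, TMM scaling, quasi-likelihood F-test, 1 mean per group, all 8 libraries sharing the spread, Benjamini-Hochberg over 13470 genes, call at an adjusted p under 0.05). Each SE was back-calculated from the F statistic, whose square root is the absolute log2 fold change over its SE. Normalized counts are counts divided by relative effective library size. An exact permutation test of 2 against 2 libraries cannot go below p = 0.333, so none was used. Libraries held 17420284 to 19427359 counts, a count of 0 allows up to 3, and such limits cover counting error only. Replicates of each group differed by more than sampling noise. The scripts were tested on simulated data. Named from the lists were genes called in any comparison, at most the 3 highest and 3 lowest per list, genes below the filter, and the 2 genes most correlated with each tested member. Alternatives were DESeq2 1.42.0, limma 3.58.1 on log2(FPKM + 1) and log2(FPKM + 0.1), other scaling (RLE) and filters (none, or 10 counts in every library), fits to the libraries compared only, a replicate block, each library left out and summed osteocalcin counts. Promoters are from RefSeq, transcripts from GENCODE vM21, both GRCm38. No other gene of the RefSeq table overlapped any of the 9 genes, whereas 3 GENCODE genes did.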

Additional observations from a re-analysis of the deposited data

Results flagged for a closer look

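*Alpl*, which encodes tissue-nonspecific alkaline phosphatase, stood out because its libraries separated in opposite directions. Both NC-7d libraries (5 and 4 counts) were below both NC libraries (6 and 7), while both KD-Nap1l2-7d libraries (6 and 10) were above both KD-Nap1l2 libraries (3 and 0). Read the other way, the libraries labelled as knockdown were below the control without induction and above it after 7 days. In mean normalized counts, the 7-day difference in the knockdown line minus that in the control line was 8.39. The gene was below the filter, so this difference was not tested in the main fit; without the filter its adjusted p was 0.829 (edgeR). Single counts decide the order at this depth. The share of all genes that separate in opposite directions was not computed. In either direction, 57.8% of all tested genes did not overlap between NC-7d and NC, and 61.4% between KD-Nap1l2-7d and KD-Nap1l2.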

How the results depend on the processing

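Of 563 alternative values of the members' log2 fold changes, 517 kept their direction and their side of the threshold. Of the rest, 25 changed sign, 19 lost a call and 2 gained one. Only values called in the main fit could lose a call, 2 in NC-7d against NC and 4 in KD-Nap1l2-7d against KD-Nap1l2. Most of the 563 belong to values never called, so the 517 do not measure how firm the calls are. In NC-7d against NC, 2 members were called, and 1 when only the libraries compared were fitted; a replicate block also left 1. The replicate numbers do not pair the libraries, since deviations of same-numbered libraries correlated at -0.061 to 0.092; the block called 4 genes in KD-Nap1l2 against NC in place of 11 and changed no other count of members. In KD-Nap1l2 against NC the count of genes called was 460 by DESeq2, 160 without a filter, 4 with at least 10 counts in every library, 0 with the libraries compared only, and 33 and 18 by limma on log2(FPKM + 1) and log2(FPKM + 0.1). DESeq2 called 79 genes in KD-Nap1l2-7d against NC-7d and 98 in the difference of the induction changes, where the fit without a filter called 1. *Spp1* in KD-Nap1l2-7d against KD-Nap1l2 was not called by limma on log2(FPKM + 1) (adjusted p = 0.0520). With *Bglap* and *Bglap2* summed, the *Bglap* value turned to -0.14 in KD-Nap1l2-7d against KD-Nap1l2 and to 1.19 in KD-Nap1l2 against NC, and with *Bglap3* added to -0.55 and 1.10. The cause of the other changes was not tested.

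Leaving out single libraries gave 0 to 2 members and 122 to 1490 genes called in NC-7d against NC, 1 to 4 members and 305 to 2218 genes in KD-Nap1l2-7d against KD-Nap1l2, 0 members in the other comparisons, 0 to 562 genes in KD-Nap1l2 against NC, 0 to 1 in KD-Nap1l2-7d against NC-7d and 0 to 19 in the difference; a lone remaining library is assumed to vary like the other groups. Log2 fold changes that turned sign ranged in NC-7d against NC from -1.48 to 0.78 for *Bglap* and -0.73 to 0.34 for *Enpp1*. In KD-Nap1l2 against NC they ranged from -0.028 to 0.099 for *Spp1*, -0.17 to 0.37 for *Sparc*, -0.38 to 0.35 for *Mgp*, -6.21 to 0.87 for *Bglap*, -0.19 to 0.37 for *Enpp1* and -0.25 to 0.11 for *Slc20a1*. In KD-Nap1l2-7d against NC-7d they ranged from -0.28 to 1.11 for *Spp1* and -0.90 to 0.18 for *Enpp1*, and in the difference from -0.31 to 1.08 for *Spp1*, -0.62 to 5.83 for *Bglap2* and -0.96 to 0.11 for *Enpp1*. None of these was called with all libraries. Depth limits *Alpl*, *Ibsp* and the osteocalcin genes.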
